A study of Xenopus tropicalis with 45 samples.

Results

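The genes described here encode the protein partners and counterparts of the histone deacetylases: 43 listed genes for subunits of the NuRD, Sin3, CoREST and NCoR corepressor complexes, for Polycomb proteins, for histone acetyltransferases and for readers of acetylated histones. They were chosen by symbol from their known roles and not by a measured value, though with earlier results of these data known. Of the 43, 41 were found among the 28850 genes of the RNA-seq files. The other 2, mta3 and kat6b, were not analysed here.

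Histone deacetylases such as Hdac1 and Hdac2 remove acetyl groups from histone tails and act mostly as the catalytic part of larger complexes. NuRD couples deacetylation to the remodelling ATPase Chd4, Sin3 is built on the scaffolds Sin3a and Sin3b, CoREST joins deacetylation to the H3K4 demethylase Kdm1a, and NCoR carries Hdac3 to nuclear receptors. Acetyltransferases such as Ep300 put the mark on, bromodomain proteins such as Brd2 and Brd3 bind it, and Polycomb repressive complexes place H3K27 methylation and H2A ubiquitin on genes kept silent. In the frog embryo much of this machinery is loaded into the egg as maternal protein and mRNA.

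RNA was measured in explants of wild-type Xenopus tropicalis embryos at the early gastrula stage (st10.5). Animal caps (AC) form ectoderm, and vegetal mass explants (VG) form endoderm. In one experiment the embryos were kept from early cleavage in 100 nM trichostatin A (TSA), which blocks deacetylases of classes I and II, or in its solvent DMSO. In the other they were kept in 10 mM valproic acid (VPA), a weaker and chemically unrelated inhibitor, or in water. Each of the 8 groups had 2 libraries, described by the study as independent biological replicates. Binding of Hdac1 in untreated whole embryos at st8, st9 and st10.5, and acetylated H3 (H3Kac) at st10.5 in untreated whole embryos and in DMSO-treated AC and VG, were given as peak lists. Further lists from whole embryos covered Hdac1 in DMSO or 100 nM TSA at st9 and st10.5, Hdac2 at both stages and Sox3 at st9.

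The libraries held 16892279 to 54350322 counts. Replicate 2 of AC in DMSO and of AC in TSA stood apart: they held the most counts, and ribosomal RNA took 35.0% and 39.4% of them, against 0.730% to 4.38% in the other 14 libraries. The explants carried the markers of their germ layers, and VG carried mesoderm markers as well. The summed level of 10 ectoderm markers was 2238 to 3087 TPM (transcript abundance scaled for gene length and library) in the AC controls and 127 to 178 TPM in the VG controls, and that of 10 endoderm markers was 56.4 to 126 TPM and 7082 to 8732 TPM. The sum of 8 mesoderm markers was 17.9 to 31.05 TPM in the AC controls and 753 to 1106 TPM in the VG controls. In AC the ectoderm sum was 759 to 1344 TPM under TSA and 1122 to 1295 TPM under VPA. The endoderm sum there was 269 to 536 TPM and 156 to 344 TPM, and the mesoderm sum 76.3 to 130 TPM and 29.0 to 125 TPM. These markers moved with every inhibitor effect in AC given below, and their part in it was not tested. In such bulk samples, fewer cells of a type and less RNA per cell cannot be told apart.

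Nearly the whole set was expressed. Of the 41 genes, 34 exceeded 10 TPM in every one of the 16 libraries and 39 had a mean above 1 TPM. The median of their mean levels was 59.6 TPM, against 0.533 TPM over all genes, and 15 of the 41 lay in the top 10% of genes. These levels are a description and carry no test.

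The highest level belonged to sap18, a small Sin3-associated protein that is also part of a splicing-linked complex, at 237 to 594 TPM over the 16 libraries. Next came ing2, a Sin3 subunit that reads methylated H3K4, at 134 to 457 TPM. Both genes were lowest in AC replicate 2 of the DMSO and TSA groups, the libraries rich in ribosomal RNA. The third was suz12, a core subunit of Polycomb repressive complex 2, at 184 to 350 TPM, and the fourth was mbd3, the methyl-binding-domain subunit of NuRD, at 149 to 278 TPM. The ranges of these 4 genes overlap, so the order of neighbours among them is not set beyond the spread between libraries.

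**Figure D1:**
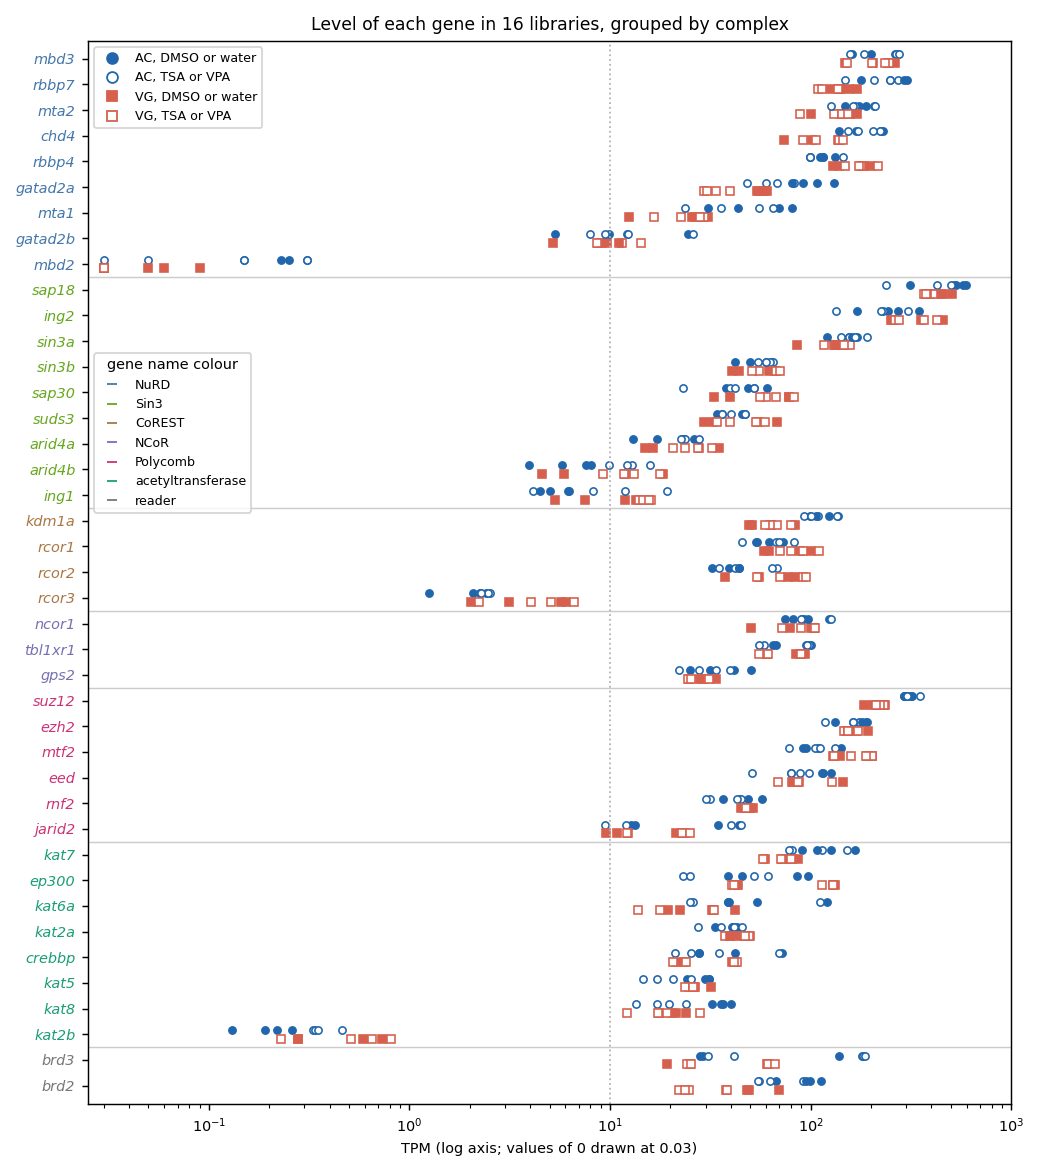
Level of each of the 41 genes (rows, grouped by complex) in the 16 libraries, in TPM on a log axis. Circles are AC and squares VG, filled for vehicle and open for inhibitor; the dotted line marks 10 TPM, and mbd2 and kat2b lie far to the left of every other gene.

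Several complexes had a dominant paralog at the level of mRNA, while the proteins in the complexes were not measured. For NuRD it was mbd3: mbd2 lay between 0 and 0.31 TPM, with at most 6 counts in a library. Among GCN5-type acetyltransferases, kat2a lay at 27.3 to 50.01 TPM and kat2b at 0.13 to 0.81 TPM. The Sin3 reader ing2 stood 11.7 to 56.1 times above ing1 in the same library, and sin3a 1.88 to 3.24 times above sin3b. Of the CoREST scaffolds, rcor1 had a mean of 73.1 TPM, rcor2 of 58.3 TPM and rcor3 of 3.27 TPM.

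The order within a pair did not always hold across tissues. The histone chaperones rbbp4 and rbbp7 are shared by NuRD, Sin3 and Polycomb complexes. Their ratio in TPM (rbbp4 over rbbp7) was 0.436 and 0.649 in the AC libraries with DMSO and 1.58 and 1.19 in the VG libraries with DMSO. With water it was 0.394 and 0.446 in AC and 0.812 and 0.922 in VG. In both experiments the control libraries of AC and VG did not overlap in this ratio, and rbbp7 was the more abundant of the pair in all AC libraries.

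In NCoR, the corepressor ncor1 had a mean of 92.6 TPM, its partner tbl1xr1 of 76.9 TPM and gps2, which joins the complex to Tbl1-type proteins, of 31.1 TPM. Among acetyltransferases the highest mean was that of kat7 (Hbo1, which acetylates H3K14), with 93.8 TPM, followed by ep300 with 69.1 TPM. In Polycomb, the lowest mean was that of jarid2, which guides the methyltransferase complex, with 21.8 TPM.

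To ask whether the machinery differs between the germ layers, AC and VG were compared in the vehicle controls of each experiment by the edgeR quasi-likelihood test, with Benjamini-Hochberg adjustment over all genes tested. Of the 41 genes, 40 passed the filter on low counts and mbd2 did not. A gene is said to have changed or differed at an adjusted p under 0.05. Unless a block on the replicate number is named, the fit held none.

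In DMSO, 13 of the 40 genes differed: 12 were higher in AC and 1, rcor3, was higher in VG. Over all 15232 genes tested, 25.7% differed, 11.7% were higher in AC and 14.0% lower. The share that differed (32.5%) was thus near the background, while its direction lay towards AC. Of the 13, 10 also exceeded a 2-fold change, which 21.7% of all genes did. The median log2 fold change of the 40 genes was 0.37, against 0.00 over all genes.

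In water, 8 of the 40 genes differed and all 8 were higher in AC, against 20.6% of all genes that differed and 9.44% that were higher in AC. Only kdm1a exceeded 2-fold, as did 14.9% of all genes. The median of the 40 was 0.28, against -0.02 over all genes. Among genes with a mean above 10 TPM the medians were -0.01 in DMSO and 0.00 in water.

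**Figure D2:**
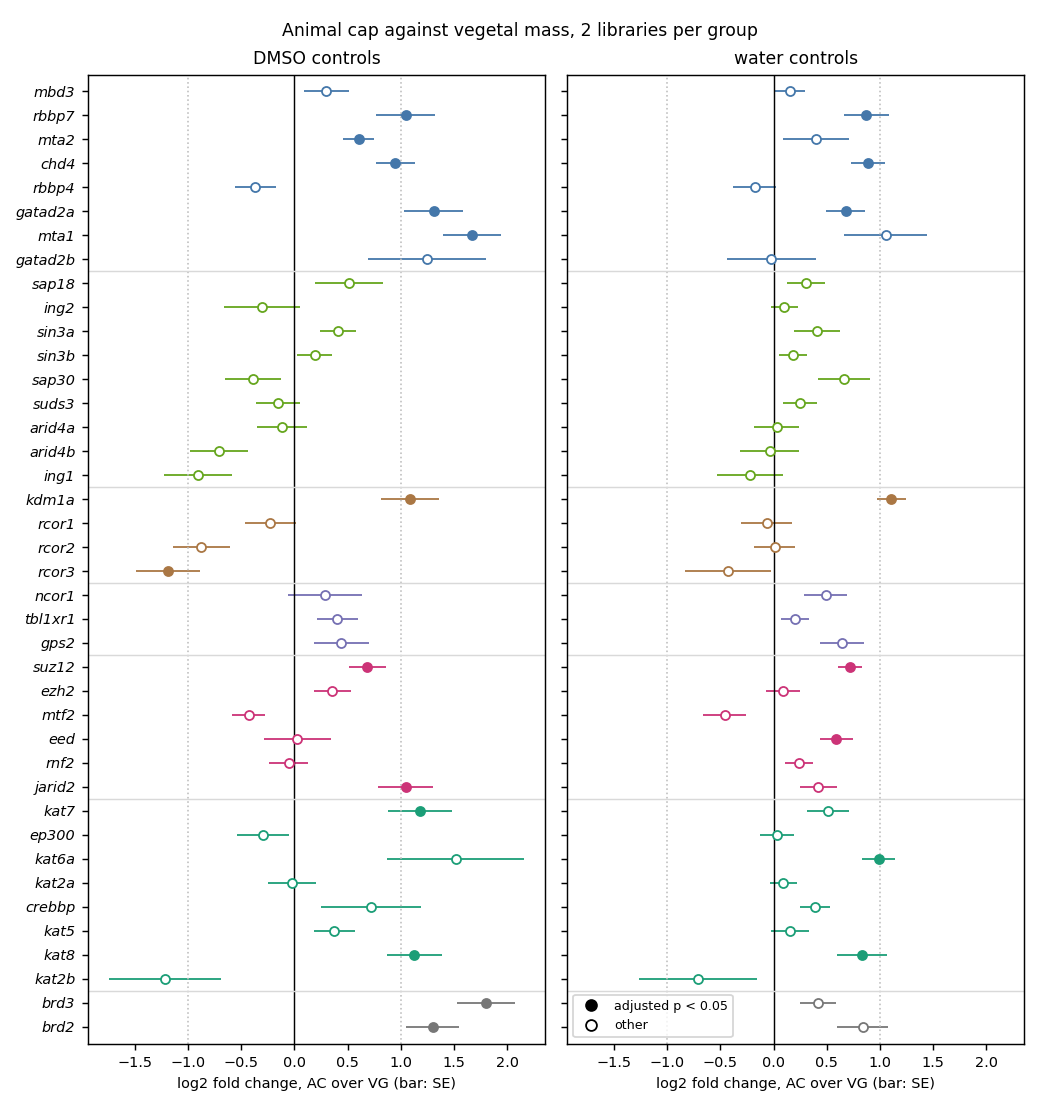
Log2 fold change of AC over VG (horizontal axis; bar, standard error) for 40 genes in the DMSO controls (left) and the water controls (right), 2 libraries per group. Filled points have an adjusted p under 0.05: 13 on the left, of which rcor3 alone lies below 0, and 8 on the right, all above 0.

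Of the 40 genes, 6 differed in both experiments, which share no library: chd4, gatad2a and rbbp7 of NuRD, kdm1a, suz12 and the acetyltransferase kat8. They are 6 of the 13 genes of the first list and 6 of the 8 of the second; over all genes tested in both, 55.9% of the genes that differed in DMSO did so in water in the same direction, and 69.3% the other way round. Of the 40 genes, 31 had the same sign in both experiments (77.5%), near the 80.3% of all genes. With the replicate number as a block, brd2, jarid2, kat7, mta1 and mta2 of the DMSO list also differed in water. There 37.9% of all genes then differed.

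The demethylase kdm1a (gene span chr2:89279753-89309651 in v10.0, from RefSeq) showed a contrast of like size in both experiments. Its level in CPM (counts scaled to library size, by TMM within an experiment) was 176 and 236 in AC and 85.7 and 109 in VG with DMSO. With water it was 184 and 180 in AC and 86.9 and 81.9 in VG. All AC libraries were above all VG libraries, 2.12-fold in DMSO (log2 fold change 1.08 ± 0.27 SE, adjusted p = 0.0279, edgeR) and 2.15-fold in water (1.11 ± 0.13, adjusted p = 0.00248). The minor CoREST scaffold rcor3 had the opposite direction: it lay at 4.65 and 6.15 CPM in AC and 12.2 and 12.4 CPM in VG with DMSO (log2 fold change -1.19 ± 0.30, edgeR adjusted p = 0.0296). In water, rcor3 had 3.75 and 6.49 CPM in AC against 5.69 and 8.05 CPM in VG, and the groups overlapped.

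NuRD held the most genes higher in AC, 5 of 8 tested in DMSO and 3 of 8 in water, against 11.7% and 9.44% of all genes. Both counts include rbbp7, which is shared with Sin3 and Polycomb complexes. Of 4 further NuRD genes tested, from the partner list described below, 0 differed in either (smallest edgeR adjusted p = 0.537 and 0.190). The ATPase chd4 (chr7:10065170-10087645) was at 651 and 808 CPM in AC and 385 and 373 CPM in VG with DMSO, and at 544 and 599 CPM against 274 and 341 CPM with water. The groups did not overlap, and the log2 fold changes were 0.95 ± 0.18 (edgeR adjusted p = 0.0115) and 0.89 ± 0.16 (adjusted p = 0.0105). The adaptor gatad2a was at 173 and 259 CPM in AC against 91.3 and 82.8 CPM in VG with DMSO, and at 198 and 160 CPM against 123 and 99.8 CPM with water. Its log2 fold changes were 1.31 ± 0.28 (edgeR adjusted p = 0.0156) and 0.68 ± 0.18 (adjusted p = 0.0393). For rbbp7 the values were 203 and 146 CPM against 77.6 and 91.8 CPM with DMSO, and 242 and 187 CPM against 134 and 100 CPM with water.

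The largest NuRD contrast was that of mta1, a scaffold that binds the deacetylase. It lay at 104 and 143 CPM in AC and 42.3 and 35.2 CPM in VG with DMSO (log2 fold change 1.67 ± 0.27, edgeR adjusted p = 0.00605). With water it lay at 59.2 and 75.0 CPM in AC and 22.6 and 41.7 CPM in VG, which did not overlap but missed the threshold. The related mta2 was at 289 and 295 CPM against 186 and 199 CPM with DMSO (0.60 ± 0.15, edgeR adjusted p = 0.0268) and at 268 and 310 CPM against 171 and 265 CPM with water, where the tissues did not overlap but the gene missed the threshold. As mta2, rbbp4, gatad2b, kat5, jarid2 and chd4 each overlap another annotated gene, and the sources used here do not say whether strand was counted, reads could be shared with that neighbour.

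Among Polycomb genes, suz12 (chr10:51993749-52016311) was at 536 and 593 CPM in AC and 358 and 343 CPM in VG with DMSO, and at 635 and 621 CPM against 375 and 386 CPM with water. The log2 fold changes were 0.69 ± 0.17 (edgeR adjusted p = 0.0274) and 0.72 ± 0.11 (adjusted p = 0.00672). Its partner eed, which binds H3K27me3, differed in water, at 119 and 118 CPM against 79.2 and 77.8 CPM (0.59 ± 0.15, edgeR adjusted p = 0.0369). In DMSO eed overlapped, at 93.5 and 80.2 CPM in AC and 65.2 and 105 CPM in VG. The cofactor jarid2 differed in DMSO alone, at 139 and 215 CPM against 83.7 and 88.1 CPM (1.05 ± 0.26, edgeR adjusted p = 0.0270). The methyltransferase ezh2 and the ubiquitin ligase rnf2 did not pass the test in either experiment.

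The acetyltransferase kat8 (chr9:5989742-6004413), which acetylates H4K16, was at 31.1 and 34.1 CPM in AC and 16.3 and 13.5 CPM in VG with DMSO. With water it was at 39.9 and 39.8 CPM against 24.6 and 20.03 CPM. The tissues did not overlap, with log2 fold changes of 1.13 ± 0.26 (edgeR adjusted p = 0.0211) and 0.83 ± 0.24 (adjusted p = 0.0486). Its relative kat6a (Moz) differed in water, at 159 and 143 CPM against 74.4 and 77.5 CPM (0.99 ± 0.15, edgeR adjusted p = 0.00587). In DMSO the kat6a replicates of AC were 162 and 440 CPM, the higher one being the library rich in ribosomal RNA, and the contrast missed the threshold (1.52 ± 0.64, edgeR adjusted p = 0.133). The gene kat7 differed in DMSO, at 164 and 263 CPM against 92.4 and 96.3 CPM (1.18 ± 0.30, edgeR adjusted p = 0.0302).

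Both bromodomain genes were higher in AC in DMSO. For brd3 the levels were 208 and 347 CPM against 80.4 and 78.9 CPM, the largest log2 fold change of the 40 genes (1.80 ± 0.27, edgeR adjusted p = 0.00453). For brd2 they were 192 and 138 CPM against 60.2 and 74.0 CPM (1.299 ± 0.25, adjusted p = 0.0113). In water brd2 lay at the threshold, at 219 and 205 CPM against 104 and 133 CPM, and brd3 at 48.8 and 47.6 CPM against 32.7 and 39.2 CPM; neither passed. None of the 9 Sin3 and 3 NCoR genes tested differed in either experiment (edgeR). At an unadjusted p under 0.05 there were 3 and 0 of them in DMSO and 1 and 2 in water, against 42.4% and 39.1% of genes with a mean above 10 TPM. The log2 fold changes of all genes of the set that did not pass lay between -1.21 and 1.52 in DMSO (27 genes) and between -0.71 and 1.05 in water (32 genes).

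The counts rested on all libraries, and the group left with 1 library is then assumed to vary like the others. In DMSO, 8 genes passed without AC replicate 1, 5 without AC replicate 2, 2 without VG replicate 1 and 2 without VG replicate 2. Over all genes the share that passed was then 16.99%, 15.2%, 10.9% and 11.4%. In water, 2 passed without AC replicate 1, 3 without AC replicate 2, 4 without VG replicate 1 and 4 without VG replicate 2, beside 7.73%, 9.86%, 10.48% and 11.7% of all genes. When both AC libraries rich in ribosomal RNA were left out together, 14 genes passed in DMSO, 5 of them above 2-fold, beside 22.6% of all genes.

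The replicate numbers of the VPA experiment moved together in all groups, and with the number as a block 19 of the 40 genes differed in water, 18 of them higher in AC, beside 37.9% of all genes. The 11 genes that passed beside the 8 named above were brd2, crebbp, gps2, jarid2, kat7, mta1, mta2, mtf2, ncor1, sap30 and sin3a, of which mtf2 alone was higher in VG. Among these, gps2 and ncor1 belong to NCoR and sap30 and sin3a to Sin3.

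**Figure D3:**
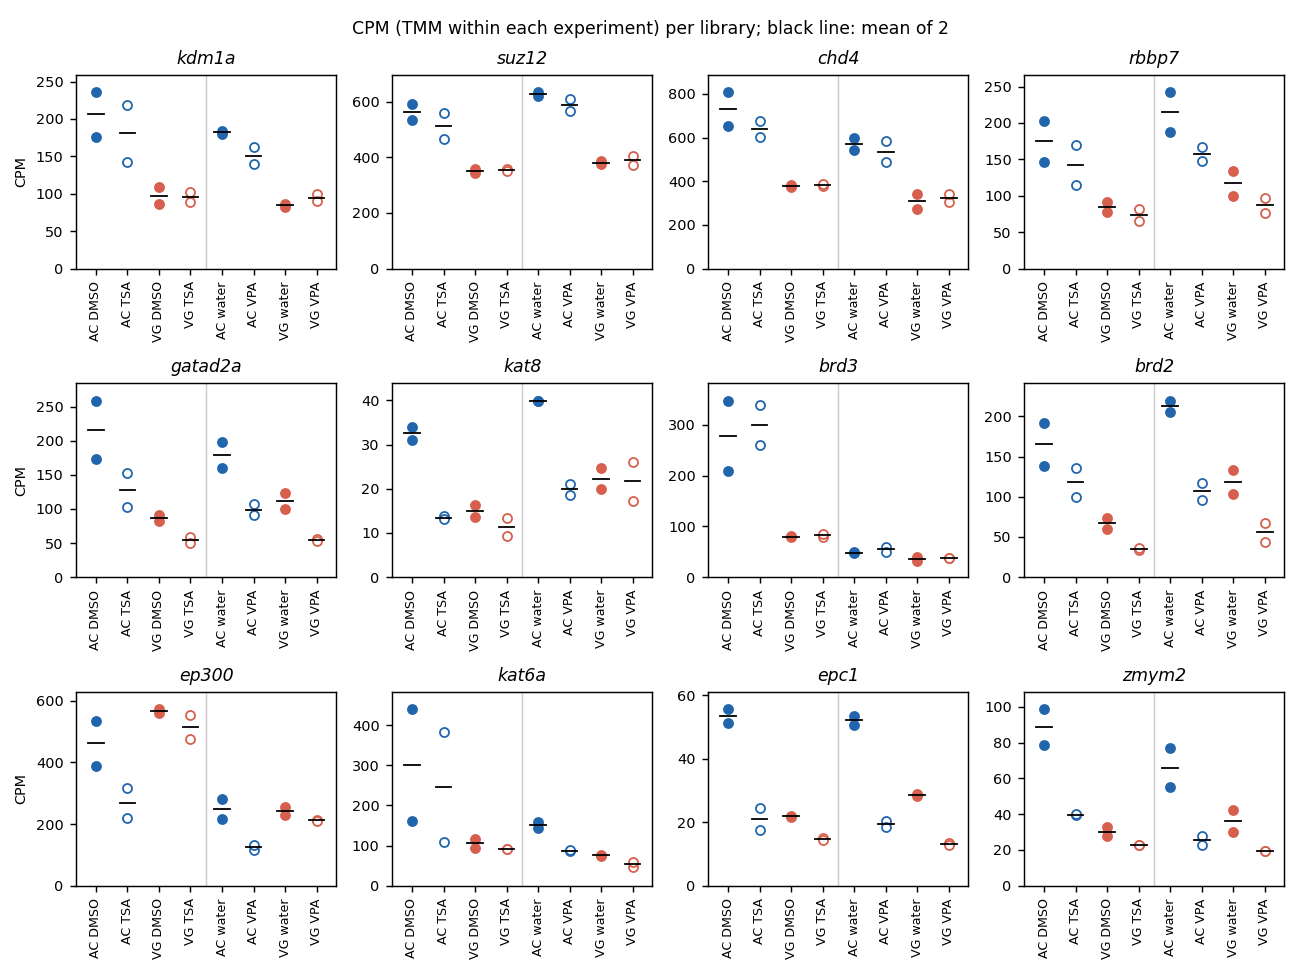
CPM of 12 genes in each library (points; filled for vehicle, open for inhibitor; blue AC, red VG; black line, mean of 2), with the TSA experiment left of the grey line and the VPA experiment right of it. Kdm1a, suz12 and chd4 separate AC from VG under every treatment, and ep300, kat8, epc1 and zmym2 are lower in AC with either inhibitor.

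To ask whether the deacetylase inhibitors altered the machinery itself, each inhibitor was compared with its vehicle in each tissue. Without a block, very few of the genes passed. Under TSA none of the 40 changed in AC, where 2.34% of all genes did, nor in VG, where 0.0131% did (edgeR). At an unadjusted p under 0.05 there were 6 genes in AC and 2 in VG, against 11.8% and 3.35% of genes with a mean above 10 TPM. The DESeq2 Wald test gave 2 (kat5 and kat8) and 0, beside 7.34% and 1.57% of all genes. Under VPA 1 gene changed in AC, where 2.35% of all genes did, and none in VG, where 0.0% did (edgeR). At an unadjusted p under 0.05 there were 18 genes in AC and 6 in VG, against 15.4% and 8.49% of genes with a mean above 10 TPM, to which all of these belong. DESeq2 gave 8 and 3, beside 8.06% and 3.20% of all genes. With the replicate number as a block, 12 genes passed under VPA in AC, 10 of them lower, and 2 in VG. Over all genes the shares were 10.8% and 2.05% (edgeR). In AC arid4b and ing1 were higher, and brd2, eed, ep300, gatad2a, jarid2, kat5, kat6a, kat8, rbbp7 and rnf2 lower. The 2 in VG were brd2 and gatad2a. In the TSA experiment same-numbered libraries moved together within a tissue (correlation 0.80 in AC and 0.78 in VG) but not across tissues. TSA and DMSO are compared within a tissue, so the count of 0 under TSA in AC holds only without such a block. A block within each tissue, chosen after seeing the data, gave 18 genes for TSA in AC, 17 of them lower, and 2 in VG, beside 24.2% and 2.92% of all genes. On simulated counts, the comparison of TSA with DMSO in AC recovered 5.97% of 2-fold changes and 54.5% of 4-fold changes. That of VPA with water in AC recovered 23.9% and 75.8%. The altered genes were drawn from genes of all levels above a low floor, and the simulated libraries shared no replicate deviations. The rate for genes at the levels of this set was therefore not measured.

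The gene that changed without a block was ep300 (chr4:115906745-115941540), the acetyltransferase of active enhancers, which fell under VPA in AC. It was at 280 and 216 CPM in water and 115 and 133 CPM in VPA, with no overlap (2.01-fold lower, log2 fold change -1.005 ± 0.16, edgeR adjusted p = 0.0384), and 2.1% of all genes changed by more than 2-fold there. Under TSA in AC it was at 390 and 534 CPM in DMSO and 220 and 318 CPM in TSA, again with no overlap, but did not pass (-0.77 ± 0.25, edgeR adjusted p = 0.207). In VG it was at 254 and 229 CPM in water and 213 and 210 CPM in VPA (-0.21 ± 0.16). Without any 1 of the 4 AC libraries of the VPA experiment, ep300 no longer passed and no other of the 40 genes did, while its log2 fold change lay between -1.18 and -0.81. Over all genes, 1 passed without water replicate 1, 2 without water replicate 2, 1 without VPA replicate 1 and 48 without VPA replicate 2, of 357 with every library. With the replicate block ep300 passed (edgeR adjusted p = 0.00946). Its close relative crebbp had log2 fold changes of -0.45 under VPA and -0.21 under TSA in AC and did not pass.

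**Figure D4:**
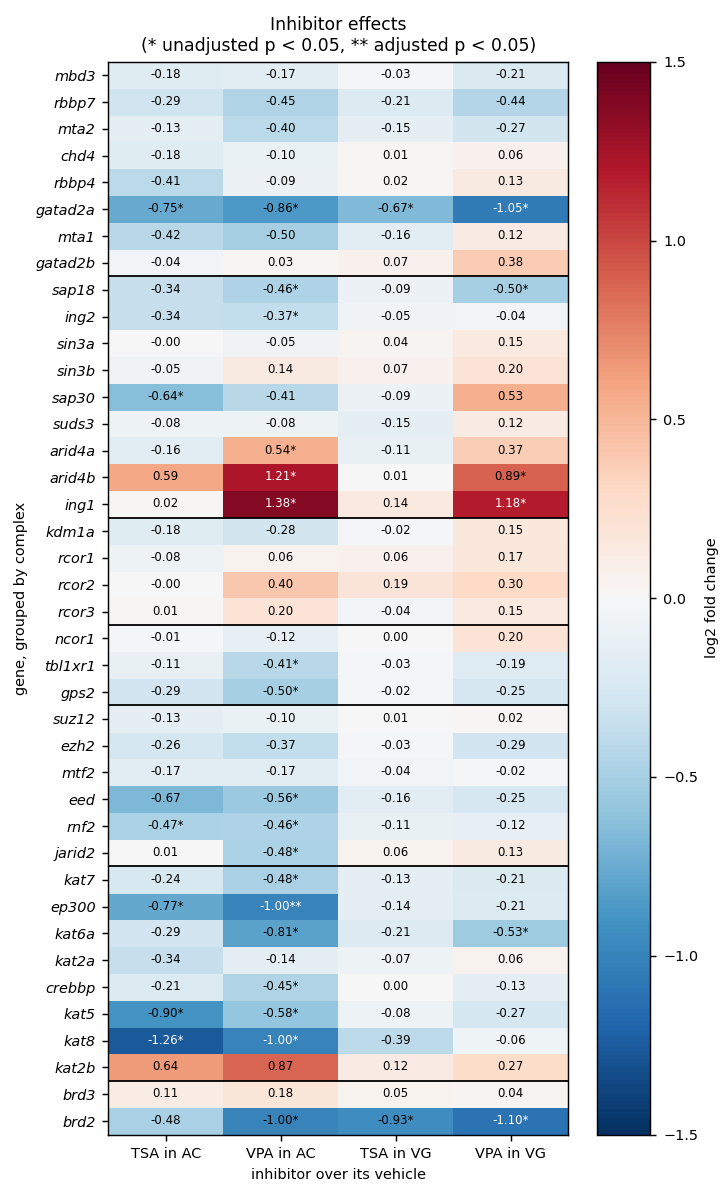
Log2 fold change (colour and printed value) of 40 genes under TSA or VPA over the vehicle, in AC and in VG. A single asterisk marks an unadjusted p under 0.05 and 2 an adjusted p under 0.05, both without a block. Only ep300 under VPA in AC reached the latter. The AC columns are mostly blue, with ing1 and arid4b red under VPA.

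In AC most values lay below 0 without passing the test when no block was fitted. With the replicate block 12 genes passed under VPA, 10 of them lower, beside 10.8% of all genes. A block within each tissue, chosen after seeing the data, gave 18 under TSA, 17 of them lower, beside 24.2%. The signs and medians that follow come from the fit without a block. Under TSA 34 of the 40 genes had a negative log2 fold change and under VPA 30, against 49.3% and 48.9% of all genes and 54.5% and 57.2% of those above 10 TPM. The medians were -0.18 and -0.32, against 0.00 and 0.01 over all genes. The direction was the same under both inhibitors for 34 of the 40 genes, 29 of them negative; over all genes 71.7% had the same sign. In VG the medians were -0.03 and 0.03, and 32 of the 40 had the same sign, against 66.35% of all genes.

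The acetyltransferases showed the lowest medians among the complexes, -0.32 under TSA and -0.53 under VPA in AC over 8 genes. Under each inhibitor 7 of the 8 were negative. The other, kat2b, with a mean of only 0.40 TPM, lay at 0.64 and 0.87. For kat8 the levels were 13.7 and 13.3 CPM with TSA and 31.1 and 34.1 CPM with DMSO in AC, with no overlap (log2 fold change -1.26 ± 0.26, edgeR adjusted p = 0.0654). They were 21.2 and 18.7 CPM with VPA against 39.9 and 39.8 CPM with water (-1.004 ± 0.24, edgeR adjusted p = 0.0881). Under both inhibitors kat8 in AC thus lay near its level in VG controls, and neither difference passed, though that under VPA did with the replicate block (edgeR adjusted p = 0.0137). For kat5 (Tip60), TSA gave 15.6 and 16.2 CPM against 30.7 and 29.0 CPM (-0.90 ± 0.19, edgeR adjusted p = 0.0762). With a block within each tissue, chosen after seeing the data, crebbp, ep300, kat2a, kat5, kat7 and kat8 passed under TSA in AC, beside 24.2% of all genes. For kat6a, VPA gave 85.4 and 88.1 CPM against 159 and 143 CPM (-0.81 ± 0.15, edgeR adjusted p = 0.0506, and 0.0132 with the replicate block).

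Outside the acetyltransferases, gatad2a had an unadjusted p under 0.05 in all 4 comparisons and a negative log2 fold change in each: -0.75 and -0.67 under TSA in AC and VG, and -0.86 and -1.05 under VPA. None passed after adjustment without a block, the smallest adjusted p being 0.0670 (edgeR). With the replicate block gatad2a passed under VPA in AC and in VG (adjusted p = 0.00696 and 0.0211). With VPA in VG it was at 55.5 and 53.6 CPM against 123 and 99.8 CPM. For brd2 the values were -0.48 and -0.93 under TSA and -0.998 and -1.105 under VPA, and none passed. It was at 96.0 and 117 CPM with VPA against 219 and 205 CPM with water in AC, and at 43.8 and 67.4 CPM against 104 and 133 CPM in VG, with no overlap in either tissue, and passed in both with the replicate block (edgeR adjusted p = 0.0152 and 0.0372). With a block within each tissue, chosen after seeing the data, gatad2a and brd2 passed under TSA in AC and in VG. Over all genes 24.2% and 2.92% then passed.

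Among the values above 0, the Sin3 subunits ing1 and arid4b lay higher under VPA in both tissues, with no overlap: ing1 was at 10.8 and 18.6 CPM against 5.01 and 6.22 CPM in AC, and at 15.3 and 14.5 CPM against 5.79 and 7.22 CPM in VG. Its log2 fold changes were 1.38 ± 0.31 and 1.17 ± 0.31 (edgeR adjusted p = 0.0795 and 0.279). For arid4b they were 1.21 ± 0.28 and 0.89 ± 0.28 (adjusted p = 0.0854 and 0.369). With the replicate block both genes passed in AC and not in VG (edgeR adjusted p = 0.0163 and 0.0589 for ing1 and 0.0383 and 0.168 for arid4b). Under TSA ing1 had log2 fold changes of 0.02 in AC and 0.14 in VG.

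Whether AC and VG responded unequally to an inhibitor was asked by an interaction term. None of the 40 genes passed for TSA or VPA, where 0.0853% and 0.00659% of all genes did (edgeR). DESeq2 gave 0 and 0, beside 1.52% and 0.874% of all genes. At an unadjusted p under 0.05 there were 2 and 4 genes, against 4.98% and 4.59% of genes with a mean above 10 TPM. For kat8 the effect in AC minus that in VG was -0.88 ± 0.37 on the log2 scale for TSA and -0.94 ± 0.33 for VPA (edgeR adjusted p = 0.951 and 0.878). With a block within each tissue, chosen after seeing the data, 6 genes passed for TSA (arid4b, brd2, eed, ep300, kat5 and kat8), beside 7.52% of all genes. For ep300 the value was -0.64 ± 0.35 and -0.80 ± 0.23 without a block (adjusted p = 0.9999 and 0.721).

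A wider list of 79 partner genes of the same complexes, of which 78 were tested, was read beside the set. It holds other subunits of these complexes, taken by their known function, again with earlier results of these data known. Between the tissues, 15 of the 78 differed in DMSO (7 higher in AC) and 13 in water (12 higher in AC), that is 19.2% and 16.7%, against 25.7% and 20.6% of all genes. Under TSA in AC 5 changed (6.41%, against 2.34% of all genes), 4 of them downwards, and under VPA in AC 4 changed (5.13%, against 2.35%), all downwards. In VG none changed under either inhibitor (edgeR). At an unadjusted p under 0.05 there were 2 of the 78 under TSA and 7 under VPA. Over all genes these were 629 of 15232 and 1340 of 15166.

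Of the 15 partner genes that differed in DMSO, 8 were higher in VG, among them genes of Polycomb repressive complex 1. The E3 ligase ring1 was at 15.8 and 20.9 CPM in AC and 89.1 and 55.6 CPM in VG (log2 fold change -1.98 ± 0.34, edgeR adjusted p = 0.00726). The chromodomain gene cbx7 had a log2 fold change of -2.31 ± 0.44, and pcgf2 of -1.06 ± 0.20 (adjusted p = 0.0109 and 0.00957). In water none of these 3 passed. The Sin3 partner sinhcaf was higher in AC in both, at 471 and 340 CPM against 75.4 and 117 CPM with DMSO and 380 and 372 CPM against 98.7 and 117 CPM with water (edgeR adjusted p = 0.00845 and 0.000798). So was ep400, the ATPase of the Tip60 complex, with log2 fold changes of 2.87 ± 0.67 and 2.26 ± 0.39 (adjusted p = 0.0217 and 0.00919). The scaffold epc1 and the zinc finger gene zmym2, described below with the inhibitors, were also higher in AC in both experiments, by 1.29 and 0.86 and by 1.55 and 0.86 on the log2 scale. In water, kansl1, a scaffold of the kat8 complex, and brd8, a bromodomain subunit of the Tip60 complex, were also above 2-fold, at 1.52 ± 0.24 and 1.07 ± 0.22 (adjusted p = 0.00652 and 0.0162).

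The partner genes that changed under inhibitors included scaffolds of acetyltransferase complexes. In AC epc1, a scaffold of the Tip60 complex, was at 17.4 and 24.5 CPM with TSA against 55.6 and 51.1 CPM with DMSO, and at 20.3 and 18.3 CPM with VPA against 50.5 and 53.6 CPM with water. Its log2 fold changes were -1.34 ± 0.23 (edgeR adjusted p = 0.0372) and -1.43 ± 0.15 (adjusted p = 0.0276). The CoREST-associated zinc finger gene zmym2 fell by 1.15 and 1.39 on the log2 scale (adjusted p = 0.0386 and 0.0438). Outside the naming rule, and chosen after their values were seen, brd1 and pcgf3 also fell under TSA in AC: brd1, a scaffold of kat7 and kat6 complexes, by 1.49, and pcgf3, of a variant Polycomb complex, by 1.64 (edgeR adjusted p = 0.0438 and 0.0379). Under VPA brd1 fell by 1.26 and msl2, named in the same way, by 0.81 (adjusted p = 0.0358 and 0.0467).

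Without any 1 of the 4 AC libraries of the experiment concerned, none of the changes of epc1, zmym2, brd1 and pcgf3 under that inhibitor passed. Such fits leave 1 library in a group, and fewer of all genes pass in them, so this loss is not particular to these genes. Over all alternative fits, their log2 fold changes stayed at -0.96 or lower.

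To ask whether the genes are themselves near bound Hdac1, peaks were counted whose summit lay within 10 kb of the gene's span in the v10.0 assembly. The windows can hold neighbouring genes, and the strand of genes was not at hand, so gene starts were not used. In the lists of untreated embryos, Hdac1 peaks near the 41 genes were few at st8 and st9 and general at st10.5. At st8 6 genes had one, at st9 11, and at st10.5 38. Among 14394 protein-coding genes expressed in these explants the shares were 6.76%, 20.6% and 72.0%, against 14.6%, 26.8% and 92.7% here. The genes' spans were longer than those of expressed genes, with a median of 25940 bp against 19369.5 bp. The shares of expressed genes, here and below, were matched neither for span nor for level. The whole lists grew from 1340 to 5136 and 22681 peaks, hold no value per replicate and carry no replicate error.

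Of the 38 genes, 22 had an Hdac1 peak at st10.5 only among these 3 lists. The 3 without one in these lists were gps2, kat5 and mbd2. In the longer list of a single DMSO library at st9 (45185 peaks), 40 of the 41 genes had a peak, all but gps2. Absence from the st9 list of 5136 peaks thus does not show absence of Hdac1 at st9. In the single DMSO library at st10.5, kat5 had 3 peaks and mbd2 had 2. All 11 genes with a peak at st9 also had one at st10.5, namely jarid2, kat6a, kat8, kdm1a, mtf2, rcor1, sap18, sin3a, suds3, suz12 and tbl1xr1. A summit within 1 kb of either end of the span was present for 36 genes at st10.5 (87.8%), against 52.8% of expressed genes.

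**Figure D5:**
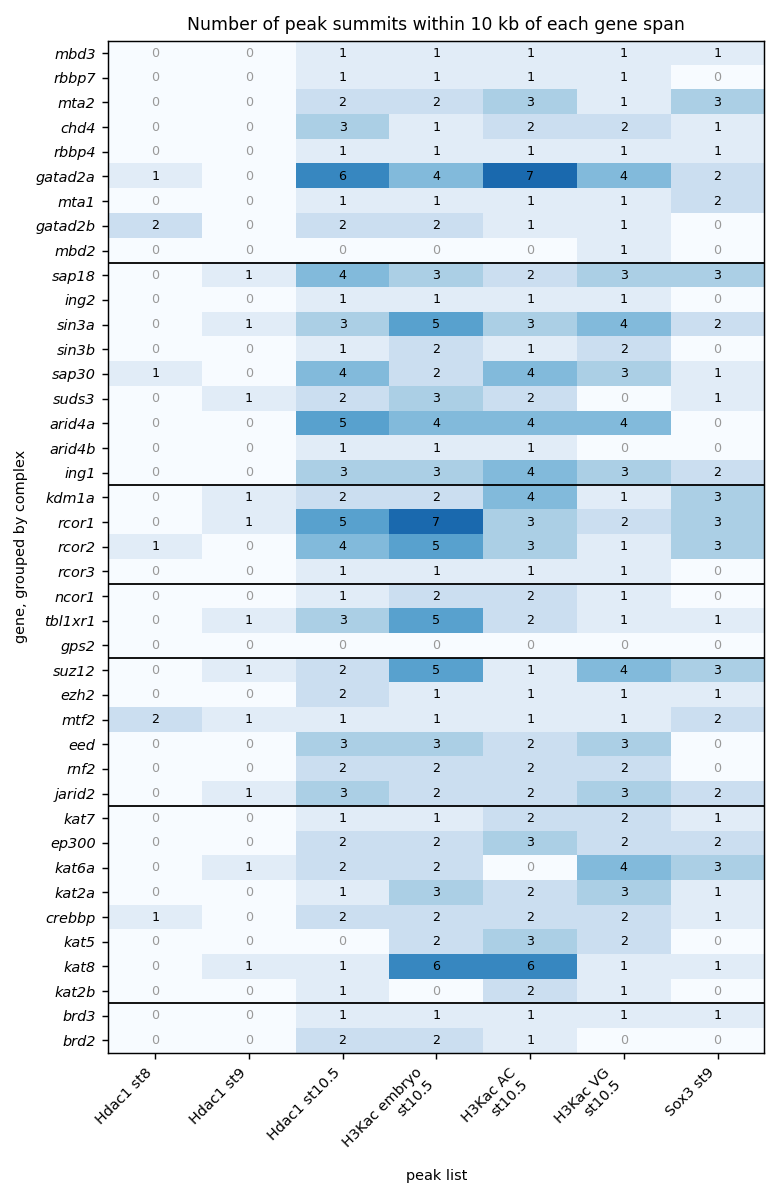
Number of peak summits (printed in each cell, darker for more) within 10 kb of the span of each of the 41 genes, in 7 peak lists. In these lists Hdac1 peaks are sparse at st8 and st9 and present at 38 genes at st10.5. In all 7 lists gps2 is empty, and kat6a has peaks of H3Kac in VG and none in AC.

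The strongest Hdac1 peaks at st10.5 lay at 2 CoREST genes. The peak near rcor1, at chr8:97693829-97695235 (v10.0), outside the gene's span by 1898 bp at its summit, had a fold enrichment over input of 12.4. The peak near kdm1a, at chr2:89312867-89313829, 3553 bp outside its span, had 12.3, and a peak there was already listed at st9 with 11.0. The other 36 genes had a strongest peak between 4.01 and 9.87. All are the authors' values at the summit.

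Acetylated H3 lay at nearly the same genes. In whole embryos 38 genes had an H3Kac peak, in AC 38 and in VG 37, against 81.1%, 75.7% and 70.8% of expressed genes. Of the 83 Hdac1 peaks of st10.5 at these genes, 89.2% shared at least 1 base with an H3Kac peak of whole embryos. Among all 22681 Hdac1 peaks the share was 59.8%. The latter hold every peak, whatever its distance from a gene and that gene's level, so the 2 sets are unlike. The difference was not tested. In the explants the strongest acetylation was at Polycomb repressive complex 2 genes: suz12 (chr10:52015670-52016811 in AC) had a fold enrichment of 33.6 in AC and 29.9 in VG, and eed (chr2:168826275-168827515 in AC) had 31.6 and 25.1. Next in both explants was brd3, with 27.9 and 21.1. In AC the summits of these 3 peaks lay 237, 255 and 267 bp inside an end of the gene's span.

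Between the explants, 35 genes had H3Kac peaks in both, 3 in AC only (arid4b, brd2 and suds3), 2 in VG only (kat6a and mbd2) and gps2 in neither; among expressed genes the shares were 62.2%, 13.5%, 8.66% and 15.6%. For brd2 the AC-only listing stood beside higher mRNA in AC in DMSO. For kat6a the listing and the mRNA in water lay in opposite directions. Its mRNA was higher in AC in water, while the AC list held no peak within 10 kb and the VG list held 4, the strongest at chr3:130505338-130507005 with a fold enrichment of 16.9. These lists come from DMSO explants, and in DMSO the kat6a contrast missed the threshold. The whole-embryo list held 2 peaks near kat6a, the strongest with a fold enrichment of 28.9. Absence from the AC list does not show absence of acetylation. The number of H3Kac peaks was higher in AC than in VG at 16 genes, among them kat8 with 6 against 1 and kdm1a with 4 against 1, and higher in VG at 9, among them suz12 with 4 against 1, whose mRNA was higher in AC. The same counts over expressed genes were not made, so 16 against 9 is not shown to be particular to this set. More expressed genes had a peak in AC (75.7%) than in VG (70.8%). A number of peaks does not give the amount of acetylation. For mta2, with 3 peaks in AC against 1 in VG, the VG peak was 12647 bp long. The strongest suz12 peak had the higher fold enrichment in AC, 33.6 against 29.9. So did the strongest peak of each of the 35 genes listed in both explants, so this is not particular to suz12. These values were not scaled between the explants here.

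The other peak lists were read in the same windows. Peaks of Sox3, an early transcription factor of the ectoderm, lay at st9 within 10 kb of 26 of the 41 genes (63.4%), against 46.2% of expressed genes. In the lists of single libraries, which hold more peaks, Hdac1 peaks lay near 40 genes in DMSO and 41 in TSA at st9, and near 40 in both at st10.5; among expressed genes the shares were 86.6%, 84.7%, 91.7% and 92.2%. Hdac2 peaks lay near 40 genes at both stages, against 76.2% and 87.8% of expressed genes.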

How the data were processed

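RNA-seq of 16 explant libraries and 13 ChIP-seq peak lists of X. tropicalis were used. The authors aligned RNA-seq reads with STAR to the v10.0 genome and estimated gene counts with RSEM. The deposited expected counts are not normalized and were rounded to whole numbers here, and the deposited TPM values were used for levels. Peaks were called by the authors with Macs2 on Bowtie2 alignments. The deposited fold enrichment (a ratio over input) and −log10 q are the authors' summit values, and the Sox3 list holds the authors' IDR score. Untreated Hdac1 and Sox3 peaks passed an IDR of 0.05 between replicates, H3Kac peaks were present in both replicates (explant replicates 2 downsampled to 25%), and the treated Hdac1 and the Hdac2 lists come from single libraries. These lists hold no reads, so their depth is unknown.

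A quasi-likelihood model of edgeR 4.0.16 (R 4.3.3) was fitted to the counts after TMM scaling and the filterByExpr filter on low counts, with a mean per group over the 8 libraries of an experiment and p adjusted over all genes tested. TMM ran within each experiment. The fit was tested on simulated data with known folds. Peaks were counted with Python 3.11.15 and pandas 2.3.3. DESeq2 1.42.0, other normalizations, filters, blocks, distances and left-out libraries were alternatives. The members and gene lists were chosen with earlier results of these data known. Named genes are those with an adjusted p under 0.05 in at least 1 of 8 contrasts, the highest and lowest of each complex, and at most 10 partner genes above 2-fold, by smallest adjusted p. Gene spans come from RefSeq on the same assembly. The result of 1 partner gene is not reported here. Same-numbered libraries were checked for shared deviations from their group means. These correlated at 0.46 to 0.63 in all 6 pairs of groups of the VPA experiment, where the numbers were taken to pair the libraries. In the TSA experiment they correlated at 0.80 and 0.78 within a tissue but -0.05 to -0.10 across tissues. There the numbers were not taken to pair libraries across tissues, and the block within each tissue was run as an alternative. The pairing comes from the data; the labels give the numbers only.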

Additional observations from a re-analysis of the deposited data

How the results depend on the processing

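Counts below are of the 40 genes tested. Without 1 library at a time, the genes that differed between AC and VG numbered 2 to 8 in DMSO (main 13; above 2-fold 2 to 8, main 10) and 2 to 4 in water (main 8; above 2-fold 1 to 3, main 1). The VPA count in AC was 0 without any 1 of its 4 libraries (main 1, also above 2-fold), and the counts of TSA in AC, of TSA and VPA in VG and of both interactions stayed at 0. Under the DESeq2 Wald test, TSA in AC gave 2 genes (kat5 and kat8, 1 above 2-fold), VPA in AC 8 (5 above 2-fold), VPA in VG 3 (3 above 2-fold) and AC against VG in water 3 above 2-fold. Over all genes DESeq2 passed 7.34% for TSA in AC, 8.06% for VPA in AC and 3.20% for VPA in VG. In water it passed 2639 of 16143 genes above 2-fold. With all 16 libraries in one fit, TSA in AC gave 2 (1 above 2-fold) and VPA in AC 3 (3 above 2-fold), beside 4.04% and 3.21% of all genes. VPA in AC gave 2 with RLE normalization, 4 with no filter (2 above 2-fold), 2 with at least 10 counts in every library (0 above 2-fold) and 0 with only its 4 libraries (0 above 2-fold). The shares of all genes were then 2.32%, 2.72%, 3.26% and 0.0211%. AC against VG in water gave 2 above 2-fold with RLE. Leaving out ribosomal RNA genes changed no call of the named genes. Without both rRNA-rich AC libraries, chosen after seeing the data, AC against VG in DMSO gave 14, with 5 above 2-fold.

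With the replicate number as a block, VPA in AC gave 12 genes (4 above 2-fold), VPA in VG 2 (2 above 2-fold) and AC against VG in water 19 (2 above 2-fold), beside 10.8%, 2.05% and 37.9% of all genes; it moved no count of the TSA experiment by over 1.5 times. A replicate block within each tissue, chosen after seeing the data, gave 18 for TSA in AC (1 above 2-fold), 2 for TSA in VG, 11 for VPA in AC (3 above 2-fold), 31 for AC against VG in DMSO, 19 in water (4 above 2-fold) and 6 for the TSA interaction, beside 24.2%, 2.92%, 8.81%, 64.9%, 30.1% and 7.52% of all genes.

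Among genes with an unadjusted p under 0.05 in both experiments, 5 of 5 genes had the same direction in AC, 2 of 2 in VG and 11 of 11 between AC and VG, the last chosen after seeing the data. Over all genes that met this rule the shares were 99.6%, 99.72% and 99.81%, so these counts are the background. At 50 kb, 18 genes had an Hdac1 peak at st9 (main 11). At a −log10 q of at least 10, 20 had one in the st9 TSA list (main 41) and 18 in the st9 Hdac2 list (main 40), both of single libraries. No result was reversed. The causes of these shifts were not tested. No analysis at gene starts was run, since strand was not at hand.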

Other observations

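Some of the genes sat at different levels in the 2 experiments, in vehicle as well as in inhibitor. In AC, brd3 was at 138 and 180 TPM in DMSO and 28.2 and 29.0 TPM in water, and in VG at 60.5 and 61.1 TPM and 19.2 and 25.1 TPM. In the same libraries the ratio of brd3 to brd2 was 1.22 and 2.697 in AC with DMSO and 0.297 and 0.292 with water, so in these AC controls the more abundant of the pair was brd3 with DMSO and brd2 with water. In VG, ep300 was at 130 and 133 TPM in DMSO and 43.7 and 43.1 TPM in water, and jarid2 was at 21.4 and 23.6 TPM and 10.8 and 9.55 TPM. The experiments were run with different vehicles and were not compared by a test, and the vehicle and the experiment cannot be told apart.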
